A study of Mus musculus with 9 samples.

Results

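The 6 mature arms of the miRNA hairpins miR-1249, miR-671 and miR-338 were followed in the TA muscle of control and tumor-bearing mice. They were chosen by name and by their measured levels among the 1915 mature miRNAs of the count tables, because each hairpin lies inside a protein-coding gene and has an arm that was higher in the LLC group. The raised arms are miR-1249-3p (mmu-miR-1249-3p in the tables), miR-671-3p (mmu-miR-671-3p) and miR-338-5p (mmu-miR-338-5p), and their partners are mmu-miR-1249-5p, mmu-miR-671-5p and mmu-miR-338-3p. That choice used the comparison of the LLC with the control group, so all values of this comparison are given as a description, without a test, for both arms of each hairpin. Of the 6 arms, 4 passed the expression criterion of more than 32 counts in at least 1 library, as did 304 miRNAs in all. The arms miR-1249-5p and miR-671-5p did not.

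Small RNA was sequenced from the tibialis anterior of 4 control mice (C1 to C4), injected with PBS, and of 5 mice (L1, L2, L3, L5 and L6) that received 750000 Lewis Lung Carcinoma (LLC) cells, a mouse lung carcinoma line, in each flank. Muscles were collected on day 22. The labels give C57BL/6J mice of 10 weeks, whereas the design text gives C57BL/10 males of 8 weeks. A sixth LLC library was removed by the authors and was not analysed here. Total counts ranged from 4992339 to 6548379 in the control and from 6216566 to 7833161 in the LLC libraries. Levels are given as CPM, the counts of a miRNA per 1000000 counts of its library, the library size being corrected by TMM factors, which were lowest in L5 (0.762) and L1 (0.876) and lay between 0.953 and 1.15 in the other mice.

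A miRNA hairpin is cut by Dicer into a duplex, and one strand, from the 5p or the 3p arm, is usually loaded into Argonaute while the other is degraded. The loaded strand pairs with target mRNAs mainly through its seed, bases 2 to 8. A hairpin inside a gene on the same strand can be made from the transcript of its host, and both arms then come from the same precursor. The miR-338 hairpin is best known from neurons and myelinating glia, and miR-671-5p for pairing with the circular RNA Cdr1as in the brain.

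The 3 hairpins are shown with their mature arms in capitals, from RefSeq on GRCm38.p6 and read 5′ to 3′ on the strand of the hairpin, because the comparison of the arms turns on where they lie in the precursor.
Mir1249: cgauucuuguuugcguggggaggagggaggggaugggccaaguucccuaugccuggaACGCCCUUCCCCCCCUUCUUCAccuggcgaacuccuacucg
Mir671: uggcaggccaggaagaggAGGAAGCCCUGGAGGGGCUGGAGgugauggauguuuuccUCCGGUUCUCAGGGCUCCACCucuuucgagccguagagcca
Mir338: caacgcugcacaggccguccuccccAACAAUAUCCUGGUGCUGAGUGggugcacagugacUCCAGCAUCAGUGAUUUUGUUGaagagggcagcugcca
In Mir671 and Mir338 the 5p arm comes first and the 3p arm second, and in Mir1249 the 3p arm is marked.

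The mature sequences follow with the seed, bases 2 to 8, in capitals, since pairing with targets starts there.
miR-1249-3p: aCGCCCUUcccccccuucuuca
miR-671-3p: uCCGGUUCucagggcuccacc
miR-671-5p: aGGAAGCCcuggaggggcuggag
miR-338-5p: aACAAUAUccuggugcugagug
miR-338-3p: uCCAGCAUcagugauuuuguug
These seeds differ from each other, and no other of the 1679 mouse mature miRNAs in RefSeq has any of them. With 63.6% and 66.7% G and C, miR-1249-3p and miR-671-3p lay above the upper quartile of 54.5% over the 270 expressed miRNAs with a sequence, as did miR-671-5p (69.6%), whereas miR-338-5p (45.5%) and miR-338-3p (40.9%) lay below the median of 47.6%.

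Mir1249 lies on the minus strand of chromosome 15, at chr15:84951526-84951623 of GRCm38, inside 5031439G07Rik on the same strand. It is intronic in the protein-coding transcripts of that gene in GENCODE M21 and exonic in a retained-intron transcript. Mir671 lies on the plus strand at chr5:24592114-24592211, within the coding sequence of an exon of Chpf2, an enzyme of chondroitin sulfate synthesis. A retained-intron transcript of Smarcd3, a subunit of SWI/SNF chromatin remodelling complexes, overlaps it on the opposite strand. Mir338 lies on the minus strand at chr11:120014765-120014862, in an intron of Aatk, a kinase gene known from the nervous system. The hairpin Mir3065 lies opposite Mir338 on the plus strand, at chr11:120014767-120014853. Host transcripts were not analysed here.

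The libraries of L1 and L5 stood apart from the others. On the first principal component of log2 CPM over the other 300 expressed miRNAs, which held 45.9% of the variance, L1 lay at 4.64 and L5 at 7.63. The other LLC mice lay between -1.61 and 0.275 and the control mice between -4.32 and -0.964. Mean levels, fold changes, differences between arms, correlations and marker sums are therefore also given without these mice. The muscle miRNAs miR-133a-3p (20321 ± 3384 CPM in the control and 18718 ± 1381 CPM in the LLC mice, SD, n = 4 and 5) and miR-486a-5p were abundant, but miR-1a-3p, usually the leading muscle miRNA, had only 62 to 171 counts per library, and miR-206-3p had 5 counts in all libraries together. Of the 7 muscle miRNAs listed, 6 were expressed, 1 with a positive and 5 with a negative log2-fold change (median -0.20). Their summed CPM was 91684 ± 12329 in the control and 99305 ± 15489 in the LLC mice (SD, n = 4 and 5), led by miR-486a-5p at 72081 CPM.

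The levels of the arms differed first between the strands of a hairpin. The 3p arm had more counts than the 5p arm in all 9 libraries for each of the 3 hairpins. For miR-1249, 9183 counts were found on the 3p arm and 3 on the 5p arm. For miR-671 the counts were 1284 and 73, a ratio of 17.6, and for miR-338 they were 11483 and 518, a ratio of 22.2. The log2 ratio of 3p over 5p counts (0.5 added to each) was 4.20 ± 1.32 for Mir671 and 4.53 ± 0.774 for Mir338 (SD, n = 9). For Mir1249 it was 10.5 ± 0.960 (SD, n = 9), a value set largely by the added 0.5. Without L1 and L5 the ratios were 10.2, 3.75 and 4.80 for Mir1249, Mir671 and Mir338. The ratios of Mir671 and Mir338 each differed from 0 in a two-sided exact sign-flip permutation test over the 9 mice (p = 0.00391). After Benjamini-Hochberg adjustment over the 3 hairpins, the p of this test was 0.00391, the smallest that 9 mice allow. Mir1249 had the same p, but nothing is read from it, since a 5p arm almost without counts fixed the outcome. The 9 mice include the LLC counts of the raised arms, which entered the choice of the arms. In the control mice alone, the ratios of Mir671 and Mir338 were 3.65 and 5.05, where the p of the sign-flip test cannot go below 0.125. The arm higher in the LLC group was thus the abundant strand of miR-1249 and miR-671, but the minor strand of miR-338.

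By mean CPM, miR-338-3p ranked 84 and miR-1249-3p 92 among all miRNAs of the tables, followed by miR-671-3p at 183 and miR-338-5p at 237. The arms miR-671-5p and miR-1249-5p ranked 366 and 724.

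With all 9 mice, miR-1249-3p, the only abundant product of its hairpin, had the largest log2-fold change of the 4 expressed arms. It did not have the largest without C2, without L1, without L5 or without both L1 and L5. The CPM of miR-1249-3p was 110.0 in C1, 94.3 in C2, 120 in C3 and 132 in C4. In the tumor-bearing mice, it reached 254 in L1, 174 in L2, 114 in L3, 300.4 in L5 and 156 in L6. Thus 4 of the 5 LLC mice lay above every control mouse, while L3 lay inside the control range. At least 4 LLC mice above all controls were seen for 9.21% of the 304 expressed miRNAs, and nothing is read from this, since the arm was chosen for being higher. Control mice had a mean of 114 ± 15.9 CPM (SD, n = 4) and LLC mice one of 199.7 ± 75.8 CPM (SD, n = 5), which is 1.75 times as high. The fitted log2-fold change was 0.81 with a standard error of 0.227, at rank 5 of the 304. It was 0.61 without L5, 0.71 without L1 and 0.41 without both, when the LLC mean was 148 CPM.

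Its partner miR-1249-5p was close to absent. No read was counted in the 4 control libraries, nor in L1, L2 and L5, and 2 counts were found in L3 and 1 in L6. In the control group 0 of 2868 counts of the hairpin were on the 5p arm, which allows a share of up to 0.105% (3 counts), or 0.134% as the upper bound of the 95% Wilson interval. In the LLC group 3 of 6318 were, a share of 0.0475% with a 95% Wilson interval of 0.0161 to 0.140%. Whether the 5p arm followed the 3p arm was not detectable at this depth. Floors and intervals cover counting error only, because the reads carry no molecular identifiers.

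**Figure D1:**
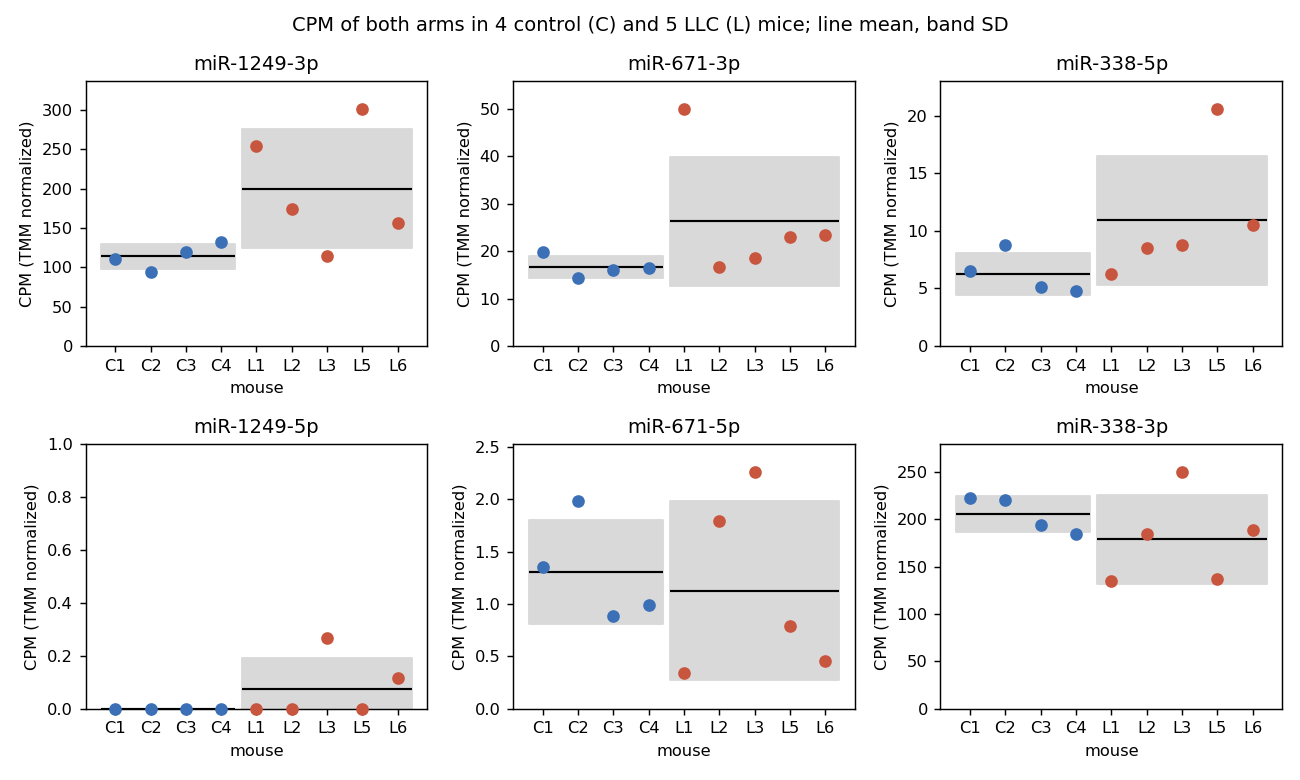
CPM after TMM normalization of the 6 arms in each mouse (points, blue for control and red for LLC), with the group mean as a line and 1 SD as a band, each panel on its own linear scale from 0. The highest values are L5 for miR-1249-3p (300.4 CPM) and miR-338-5p (20.5 CPM) and L1 for miR-671-3p (49.8 CPM), while L1 and L5 are the lowest mice for miR-338-3p.

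For miR-671-3p the difference was carried mainly by a single mouse. Its CPM was 19.9 in C1, 14.3 in C2, 15.9 in C3 and 16.4 in C4. Among the LLC mice it was 49.8 in L1, 16.6 in L2, 18.5 in L3, 22.9 in L5 and 23.4 in L6. L1, L5 and L6 lay above every control mouse, L5 and L6 by a small margin, and L2 and L3 lay inside the control range. Mean levels were 16.6 ± 2.36 CPM for the control and 26.2 ± 13.5 CPM for the LLC mice (SD, n = 4 and 5). The log2-fold change was 0.65 with a standard error of 0.275, at rank 12 of the 304. Without L1 it was 0.29, without L5 it was 0.69 and without both it was 0.27, when the LLC mean was 19.5 CPM.

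The partner miR-671-5p did not show the same pattern, within the limits of 2 to 17 counts per library. It had 10 counts in C1, 15 in C2, 5 in C3 and 5 in C4. There were 2 counts in L1, 11 in L2, 17 in L3, 4 in L5 and 4 in L6. L1, the mouse with the most miR-671-3p, had the fewest miR-671-5p counts. Mean levels were 1.30 ± 0.498 CPM for the control and 1.13 ± 0.852 CPM for the LLC mice (SD, n = 4 and 5), and the LLC mice spanned the whole control range. The LLC mean was 1.50 CPM without L1 and L5. In a fit without the filter on low counts the log2-fold change was -0.20 with a standard error of 0.429. The 5p arm took 7.38 ± 3.24% of the counts of the hairpin in the control group (SD, n = 4) and 5.31 ± 4.68% in the LLC group (SD, n = 5). The LLC mice lay on both sides of the control mean, with 9.73% in L2, 10.9% in L3, 3.33% in L5 and 1.92% in L6. Between mice it ranged from 0.673% in L1 (95% Wilson interval 0.185 to 2.42%) to 12.2% in C2 (7.53 to 19.1%).

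For miR-338 the arm that was higher in the LLC group was miR-338-5p, the minor one. Its CPM was 6.50 in C1, 8.74 in C2, 5.14 in C3 and 4.74 in C4. With tumors, it was 6.25 in L1, 8.47 in L2, 8.77 in L3, 20.5 in L5 and 10.5 in L6. L5 stood far above the others, L6 lay above the control mice, L3 was level with C2, and L1 and L2 lay inside the control range. Mean levels were 6.28 ± 1.81 CPM for the control and 10.9 ± 5.59 CPM for the LLC mice (SD, n = 4 and 5), which rest on 24 to 104 counts in a library. Its log2-fold change was 0.76 with a standard error of 0.313, at rank 6 of the 304. It was 0.43 without L5, 0.90 without L1 and 0.57 without both, when the LLC mean was 9.26 CPM.

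The abundant arm miR-338-3p did not follow. Its CPM was 223 in C1, 220.4 in C2, 194 in C3 and 185 in C4. In the LLC group, values were 135 in L1, 185 in L2, 249.6 in L3, 137 in L5 and 188 in L6. L1 and L5 lay below every control mouse, L3 lay above all of them, and L2 was level with C4. Mean levels were 205 ± 19.1 CPM for the control and 179 ± 47.0 CPM for the LLC mice (SD, n = 4 and 5). The log2-fold change was -0.20 with a standard error of 0.165, at rank 225 of the 304. It was -0.11 without L1, -0.12 without L5 and -0.33 without L3. Without L1 and L5 its sign turned, to 0.05, and the LLC mean was 207 CPM.

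Within a library, the share of the 5p arm in the counts of Mir338 does not depend on scaling. It was 2.84% in C1, 3.82% in C2, 2.58% in C3 and 2.51% in C4. The share in the LLC mice was 4.44% in L1, 4.39% in L2, 3.39% in L3, 13.0% in L5 and 5.31% in L6. All LLC mice but L3 lay above the control mice, although the 95% Wilson intervals of L1 (3.24 to 6.06%), L2 (3.36 to 5.71%) and L6 (4.35 to 6.46%) overlapped that of C2 (3.01 to 4.82%). The interval of L5 (10.9 to 15.5%) overlapped that of no other mouse. The mean was 2.93 ± 0.604% in the control group (SD, n = 4) and 6.11 ± 3.92% in the LLC group (SD, n = 5), or 4.38% without L5.

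**Figure D2:**
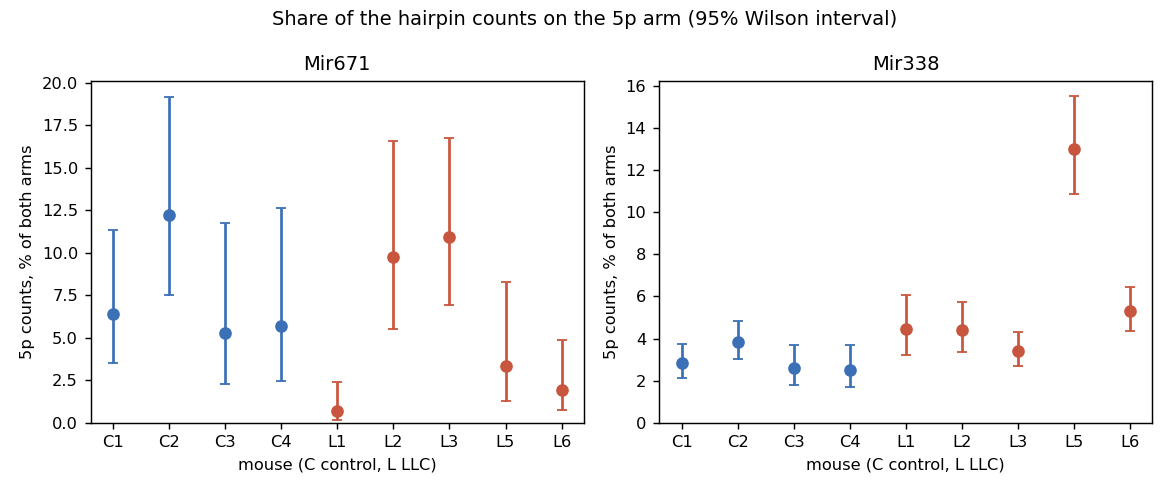
Counts of the 5p arm as a percentage of the counts of both arms in each mouse for Mir671 (left) and Mir338 (right), with 95% Wilson intervals (blue control, red LLC). For Mir338 the control mice lie between 2.51 and 3.82% and L5 at 13.0%, whereas for Mir671 the groups overlap and L1 is lowest at 0.673%.

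Reads of Mir3065, on the strand opposite Mir338, were few. miR-3065-5p had 132 counts in all libraries and miR-3065-3p 101. In L5, where miR-338-5p was highest, they had 10 and 7 counts. Neither passed the expression criterion. Whether reads were aligned to the sense strand alone is not given in the sources used here.

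None of the 4 expressed arms had LLC mice lying wholly outside the range of the control mice. Such a separation was found for 5.92% of the 304 expressed miRNAs in either direction and for 1.64% with the higher level in the LLC mice. A fitted fold of at least 1.5 with the higher level in the LLC mice was found for miR-1249-3p, miR-671-3p and miR-338-5p and for 4.28% of the 304 miRNAs. Because the arms were chosen for being higher, nothing is read from this count. Across all 304 miRNAs, edgeR's quasi-likelihood test called 0 past the threshold of 0.05 after Benjamini-Hochberg adjustment together with a 1.5-fold change, as did limma voom, while DESeq2 called 7. Without adjustment and without a fold criterion, 50 miRNAs lay at or under 0.05 in edgeR.

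**Figure D3:**
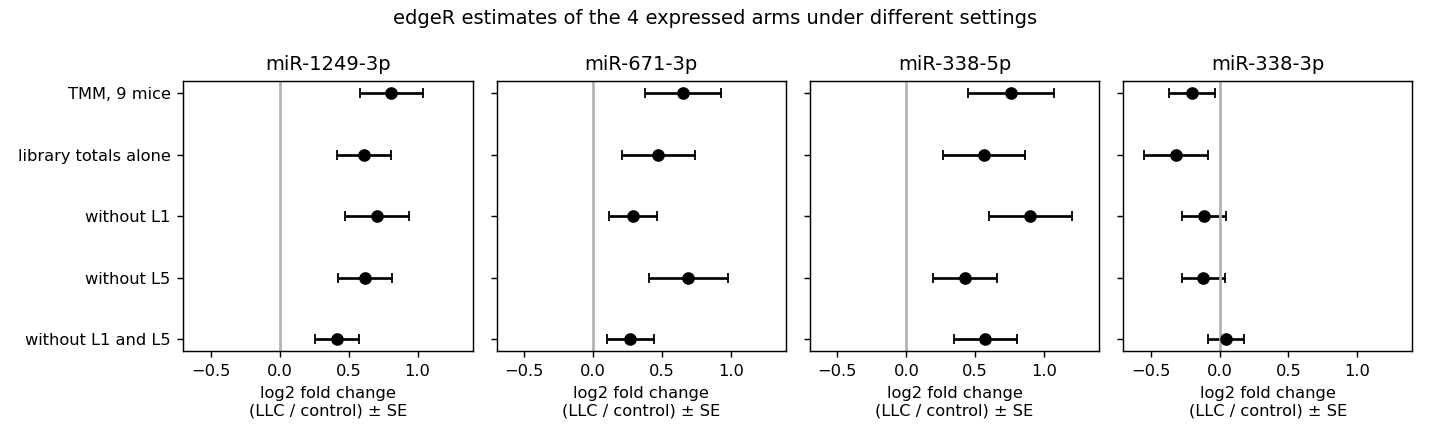
Log2-fold change of LLC over control with its standard error (bars) for the 4 expressed arms, with all 9 mice and TMM factors, with library totals alone, and without L1, L5 or both. miR-671-3p drops from 0.65 to 0.29 without L1, miR-338-5p from 0.76 to 0.43 without L5, and miR-338-3p moves from -0.20 to 0.05 without both.

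Unequal change of the arms was not limited to miR-338. The arms were compared for 60 miRNAs with both arms expressed, counted by name. These are not all such miRNAs, since miR-30b and miR-151 also had both arms expressed but are not among the 60. In 33 of the 60, one arm had a positive and the other a negative log2-fold change. Over the 60, the size of the difference between the arms had a median of 0.30 and an upper quartile of 0.51. At 0.96, miR-338 held rank 2 of the 60, behind miR-1843a (1.01) and ahead of miR-10a (0.89). The difference was 1.01 without L1 (rank 2), 0.54 without L5 (rank 7) and 0.53 without both (rank 3), when the upper quartile was 0.43, 0.45 and 0.32. Its rank follows in part from the choice of miR-338-5p for its increase. miR-1249 and miR-671 are not among the 60, since their 5p arms did not pass the expression criterion.

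**Figure D4:**
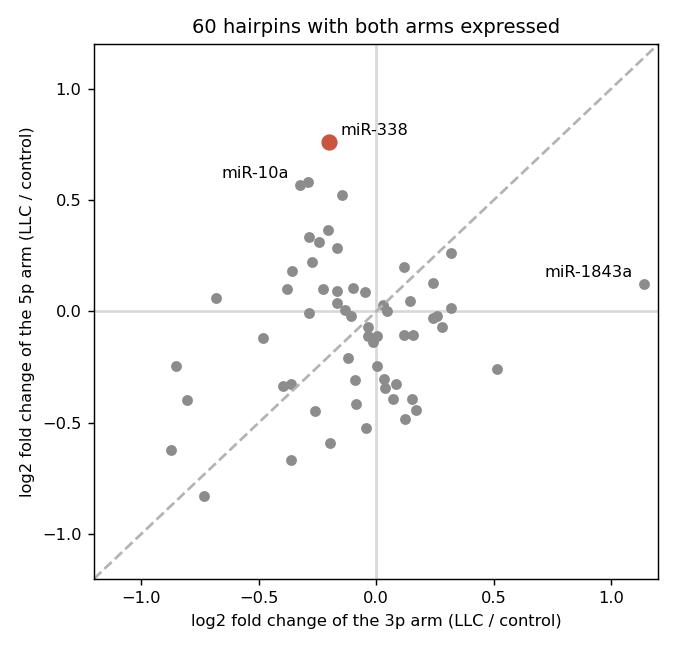
Log2-fold change (LLC over control) of the 3p arm (x axis) and of the 5p arm (y axis) for the 60 miRNAs compared, with equal change on the dashed line. Both arms of each were expressed, but the 60 do not hold all such miRNAs. miR-338 (red) lies in the upper left quadrant, at -0.20 for the 3p and 0.76 for the 5p arm, as does miR-10a.

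Whether the arms varied together between mice of the same group was examined after the group means of log2 CPM were removed. This takes out the mean difference between the groups, but not the single high LLC mice that entered the choice of the arms. L1 still lay 1.04 above its group mean for miR-671-3p, and L5 lay 1.01 above it for miR-338-5p. Every pair holds a raised arm, so these tests are not free of the choice. The 6 pairs of the 4 expressed arms were compared over the 9 mice, with two-sided exact permutation tests over the 2880 reorderings of the mice within their groups and Benjamini-Hochberg adjustment over the 6 pairs.

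The arms of miR-338 did not vary together detectably (Pearson r = -0.07, exact permutation p = 0.916, adjusted p = 0.916; Spearman rho = 0.38, exact permutation p = 0.360, adjusted p = 0.540). L5 had the highest miR-338-5p and one of the lowest miR-338-3p levels. Without C2 and L5, the 2 mice farthest from the median of miR-338-5p, r was 0.70 (exact permutation p = 0.132), and without L1 and L5 it was 0.38 (exact permutation p = 0.340). Over the 60 miRNAs whose arms were compared above, the median r between arms was 0.0015, with quartiles of -0.30 and 0.37.

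The abundant arms of different hairpins, miR-1249-3p and miR-338-3p, varied in opposite directions. Among the LLC mice, L1 and L5 had the most miR-1249-3p and the least miR-338-3p, and L3 the reverse. Among the control mice, C3 and C4 had more miR-1249-3p and less miR-338-3p than C1 and C2. Pearson r was -0.97 (exact permutation p = 0.00243, adjusted p = 0.0146) and Spearman rho -0.88 (exact permutation p = 0.0139, adjusted p = 0.0833). Without L3 and L5, the 2 mice farthest from the median, r was -0.95 (exact permutation p = 0.0139). Without L1 and L5, which stood apart, it was -0.94 (exact permutation p = 0.0139, adjusted p = 0.0833, 7 mice). The adjusted p of Pearson r ranged from 0.00625 to 0.146 over the alternatives, and with library totals alone r was -0.88 (adjusted p = 0.0646). The counts of miR-1249-3p divided by those of miR-338-3p, a ratio free of scaling, were 0.564 ± 0.128 in the control group (SD, n = 4). The ratio in the LLC mice was 1.89 in L1, 0.941 in L2, 0.458 in L3, 2.19 in L5 and 0.829 in L6.

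**Figure D5:**
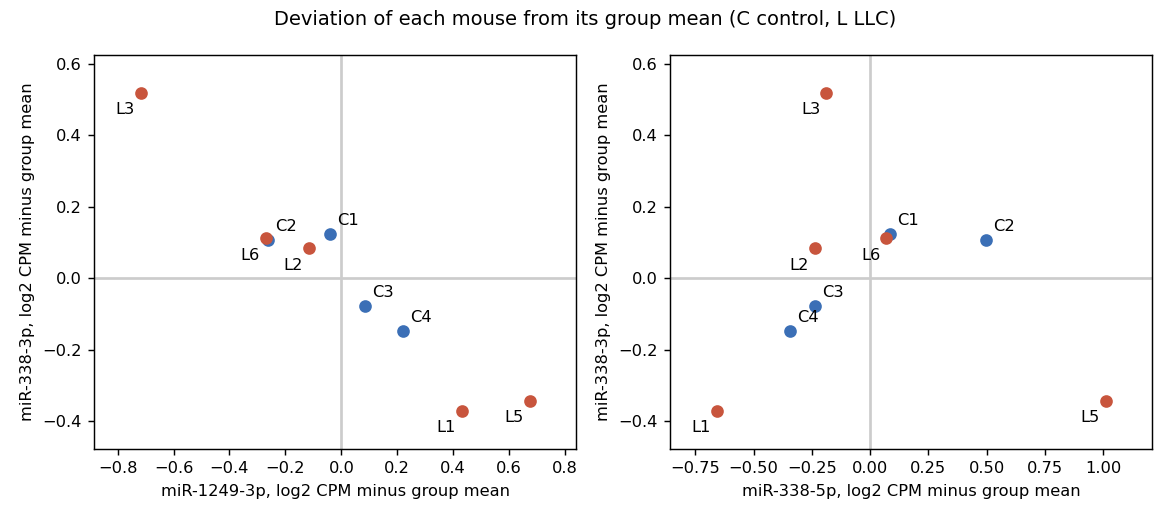
Deviation of log2 CPM from the group mean in each mouse (blue control, red LLC), for miR-338-3p against miR-1249-3p (left) and against miR-338-5p (right). On the left the 9 mice fall along a descending line (r = -0.97), and on the right L5 lies away from the others (r = -0.07 with all mice, 0.70 without C2 and L5).

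The same axis ran through much of the libraries. With group means removed, the first principal component had an r of 0.94 with miR-1249-3p and of -0.91 with miR-338-3p over the 9 mice, against 0.42 for miR-671-3p and 0.31 for miR-338-5p. Without L1 and L5, r with the same component was 0.74 for miR-1249-3p, -0.83 for miR-338-3p, -0.18 for miR-671-3p and -0.58 for miR-338-5p. Of the 304 expressed miRNAs, 63 (20.7%) had an r of at least 0.8 in size with it. The log2 TMM factor had an r of -0.88 with miR-1249-3p and of 0.82 with miR-338-3p, or -0.59 and 0.54 without L1 and L5. Of all 46056 pairs of expressed miRNAs, 6 (0.013%) had an r as low as that of miR-1249-3p with miR-338-3p, and 224 (0.486%) had an r of -0.9 or lower. The part of the axis and of the scaling in this relation was not tested.

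The remaining 4 pairs did not pass the adjusted threshold. Pearson r was 0.52 for miR-1249-3p with miR-671-3p (exact permutation p = 0.341, adjusted p = 0.638; rho = 0.48, exact permutation p = 0.271, adjusted p = 0.540). For miR-1249-3p with miR-338-5p it was 0.19 (exact permutation p = 0.752, adjusted p = 0.902; rho = -0.20, exact permutation p = 0.670, adjusted p = 0.670). For miR-671-3p it was -0.35 with miR-338-5p (exact permutation p = 0.425, adjusted p = 0.638; rho = -0.35, exact permutation p = 0.378, adjusted p = 0.540) and -0.60 with miR-338-3p (exact permutation p = 0.256, adjusted p = 0.638; rho = -0.33, exact permutation p = 0.450, adjusted p = 0.540). Without L3 and L5, r was 0.74 (exact permutation p = 0.236) for miR-1249-3p with miR-671-3p, and for miR-1249-3p with miR-338-5p it turned to -0.93 (exact permutation p = 0.00694). Without L1 and L2, it was 0.17 (exact permutation p = 0.688) for miR-671-3p with miR-338-5p and -0.40 (exact permutation p = 0.424) with miR-338-3p. Without L1 and L5, r was 0.11 for miR-1249-3p with miR-671-3p (exact permutation p = 0.854), -0.55 for miR-1249-3p with miR-338-5p (exact permutation p = 0.208), 0.054 for miR-671-3p with miR-338-5p (exact permutation p = 0.931) and -0.015 for miR-671-3p with miR-338-3p (exact permutation p = 0.993). No pair of the 3 raised arms passed the adjusted threshold with all 9 mice. The highest LLC mice were L5 and L1 for miR-1249-3p, L1 for miR-671-3p and L5 for miR-338-5p. All these highest values thus fell in L1 and L5, the libraries that stood apart.

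The miRNAs most like each raised arm were taken by Pearson r of log2 CPM, group means removed, over the 9 mice and the other 303 expressed miRNAs. For miR-1249-3p they were miR-1247-5p (r = 0.93), miR-26a-2-3p (0.93) and miR-1839-3p (0.92). For miR-671-3p they were miR-30b-3p (0.89), miR-151-3p (0.86) and miR-106b-3p (0.84). For miR-338-5p they were let-7i-3p (0.84), miR-652-3p (0.82) and miR-15b-3p (0.80). Over the 7 mice other than L1 and L5, r ranged from 0.67 to 0.87 for the first set, from 0.53 to 0.85 for the second and from 0.56 to 0.59 for the third. The sets have no miRNA in common, and all 9 but miR-26a-2-3p (0.00) had a positive log2-fold change, of 0.12 to 0.51.

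Expressed miRNAs inside a gene were found in both directions. Of the 270 with a position, 129 lay inside a protein-coding gene on the same strand. Of these, 67 had a positive and 62 a negative log2-fold change, and the median was 0.03. Without the 4 arms followed here the numbers were 64 and 61, with a median of 0.02. Of these 125, 4 passed 0.05 without adjustment and a 1.5-fold change with the higher level in the LLC mice. In the other direction, 3 passed. Of all 304, 3.62% passed with the higher level in the LLC mice, a share that still includes the raised arms followed here. Of the 141 others, 63 had a positive and 78 a negative log2-fold change, with a median of -0.07, against -0.02 over all 304.

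Markers of other cells were read beside these values. In bulk muscle, fewer cells of a type and less RNA per cell cannot be told apart. Of 8 miRNAs of nervous tissue and glia, where miR-338 is known best, 1 was expressed (miR-9-5p, 5.25 ± 1.33 CPM in the control and 5.02 ± 1.67 CPM in the LLC mice) and none was at 0 in all libraries. The myelinating glia miRNAs miR-219a-5p and miR-219a-2-3p had 17 counts and 1 count in all libraries together. The summed CPM of the 8 was 8.94, 9.27, 6.73 and 4.54 in C1 to C4, and 9.79, 4.24, 7.57, 6.51 and 6.19 in L1, L2, L3, L5 and L6. L5, with the most miR-338-5p, lay in the middle of this range.

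All 7 leukocyte miRNAs were expressed, and 6 had a positive log2-fold change. In edgeR, 2 passed 0.05 without adjustment and a 1.5-fold change, both with the higher level in the LLC mice. Of the 304, 3.62% did so in that direction and 7.24% in either direction. They were miR-223-3p (0.70) and miR-146a-5p (0.74). The median of the list was 0.32. Its summed CPM was 859 ± 52.6 in the control and 809 ± 61.9 in the LLC group, led by miR-150-5p, which had a log2-fold change of -0.38. By mouse the sum was 865, 855, 793 and 921 in C1 to C4 and 733, 884, 793, 858 and 774 in L1, L2, L3, L5 and L6.

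The 3 erythroid miRNAs, miR-451a (log2-fold change -0.76), miR-144-3p (-0.73) and miR-144-5p (-0.83), passed the same unadjusted threshold in the other direction. Of all 304 expressed miRNAs, 11 did so, these 3 included. The most abundant was miR-451a, at 129 CPM. Their summed CPM was 259 ± 49.3 in the control group (SD, n = 4), with 325, 267, 228 and 215 in C1 to C4. In the LLC mice, the sum was 92.4 in L1, 189 in L2, 219.8 in L3, 109.8 in L5 and 149.6 in L6. L1 and L5 were lowest and L3 highest among the LLC mice, as they were for miR-338-3p. The endothelial miRNAs miR-126a-3p and miR-126a-5p had log2-fold changes of -0.31 and -0.09, and their sum was 29585 ± 3392 CPM in the control and 27458 ± 2220 CPM in the LLC group, mostly from miR-126a-5p. By mouse, miR-126a-3p had 2776, 3094, 2856 and 2742 CPM in C1 to C4 and 1970 CPM in L1, 2509 in L2, 2752 in L3, 1781 in L5 and 2548 in L6. Among the LLC mice it was thus also lowest in L5 and L1 and highest in L3. The more abundant miR-126a-5p did not have this order, with 26127 CPM in L1, 26050 in L2, 27219 in L3, 24718 in L5 and 21614 in L6. The sum of both was 26211, 27726, 33929 and 30476 CPM in C1 to C4 and 28097, 28558, 29972, 26499 and 24162 CPM in L1, L2, L3, L5 and L6, lowest in L6. The summed CPM of the LLC mice other than L1 and L5 was 91324 for the muscle, 6.00 for the nervous tissue, 817 for the leukocyte, 186 for the erythroid and 27564 for the endothelial list. The part of these cell types in the levels of the arms was not tested.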

How the data were processed

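Reads were aligned by the authors against mature miRNAs of miRBase with Bowtie (no mismatch in the first bases of the read, all best alignments kept). The tables they deposited hold unnormalized counts, 1 column for each mouse. HTSeq and DESeq2 also appear in the submitters' processing notes. How reads with several alignments were counted is not given in the sources used here. The libraries shared a lane of the flow cell, and the labels name no batch.

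Library sizes were summed over all 1915 miRNAs. The count test was edgeR's quasi-likelihood test (version 4.0.16, R 4.3.3) with TMM factors and no block. It covered every miRNA that exceeded 32 counts in some library, and p-values were Benjamini-Hochberg adjusted over all 304 tested. For correlations, log2 CPM used a prior count of 2. DESeq2 1.42.0, limma voom 3.58.1, RLE factors, library totals, 3 other filters, a replicate block and left-out mice served as alternatives. The tests were checked on simulated data. Sequences and hairpin positions came from RefSeq (GRCm38.p6) and genes from GENCODE M21. Counting error limits arms with few counts, and a floor of 3 counts is 0.383 to 0.601 CPM before TMM.

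The arms and lists were chosen with earlier results of these data known. The miRNAs named are the 6 arms, the 3 most like each raised arm, the 3 of largest difference between arms among the 60 compared, and the marker lists. miR-3065 was added for its position, and miR-30b and miR-151 as examples outside the 60.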

Additional observations from a re-analysis of the deposited data

Results flagged for a closer look

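In all, 3 values lay apart from their group by Dixon's criterion at the 95% level, among 20 sets of values checked (each group of 4 or 5 mice for each measure). Chance alone is expected to mark about 1 in 20, but the arms were chosen for being higher in the LLC group. The miR-671-3p level of L1 and the miR-338-5p counts of L5 entered that choice, so nothing is read from the number of values marked. The CPM of miR-671-3p in L1 was 49.8, while the next LLC mouse had 23.4, a gap of 0.796 of the range of the group. The share of the 5p arm in the counts of Mir338 in L5 was 13.0%, and the next LLC mouse had 5.31%, a gap of 0.801 of the range. The share of the 5p arm in the counts of Mir671 in C2 was 12.2%, from 15 of 123 counts, and the next control mouse had 6.37%, a gap of 0.840 of the range. The cause of these values was not tested.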

How the results depend on the processing

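The log2-fold changes of miR-1249-3p, miR-671-3p and miR-338-5p stayed positive in all 18 alternatives, from 0.41 to 0.98, from 0.27 to 0.79 and from 0.21 to 0.98. The lowest value of miR-338-5p, 0.21, came with the replicate number as a block, where C4, L5 and L6 have no same-numbered partner and so do not enter the difference. miR-338-3p ranged from -0.33 to 0.05 and was above 0 only without L1 and L5. Library totals alone moved the median of all expressed miRNAs from -0.02 to -0.17, and its 26 unadjusted calls were 4 higher and 22 lower, against 11 and 11 as reported. Replicate numbers belong to different mice, same-numbered mice had correlations of -0.249 to -0.0899, and 0 of 6 mice correlated best with their own number.

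Adjusted calls over all miRNAs numbered 7 with DESeq2, 22 with all miRNAs that had a count, 1 without L1 and L5, and 0 to 8 with each mouse left out (1 without L1, 8 without L3). Unadjusted calls, 22 as reported, numbered 51 with all miRNAs that had a count, 9 with the replicate block, 5 without L1 and L5, and 14 (without L5) to 36 (without L3) with each mouse left out.

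With control or LLC mice alone, where p cannot go below 0.125 or 0.0625 (exact permutation), the arm ratios were 10.48 and 10.49 for Mir1249, 3.65 and 4.65 for Mir671, and 5.05 and 4.11 for Mir338.

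For miR-1249-3p with miR-338-3p, r was -0.88 with library totals alone (adjusted p = 0.0646, exact permutation), -0.94 without L1 and L5 (adjusted p = 0.0833, exact permutation) and -0.98 to -0.94 with each mouse left out, with an adjusted p above the threshold without L2, L3 or L6. For miR-1249-3p with miR-338-5p it turned to -0.092 with library totals alone, to -0.55 without L1 and L5 and to -0.93 without L3 and L5 (adjusted p = 0.0417, exact permutation), and was -0.72 (without L5) to 0.52 with each mouse left out. For the arms of miR-338 it turned to 0.20 with library totals alone, to 0.38 without L1 and L5 and to 0.70 without C2 and L5, and was -0.49 to 0.63 (without L5) with each mouse left out. For miR-671-3p with miR-338-5p it turned to 0.054 without L1 and L5 and to 0.17 without L1 and L2, and was -0.50 to 0.35 (without L1) with each mouse left out. Leaving out L1 and L5 together was chosen for the correlations, arm ratios, arm differences and marker sums after seeing the data. A ratio without a pseudocount could not be given for Mir1249. Depth limits miR-671-5p and miR-1249-5p.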
